A study of Homo sapiens with 14 samples.

Results

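The genes described here encode the collagens, laminins, fibrillins, fibulins, nidogens and thrombospondins of the extracellular matrix, its proteins FN1, SPARC and HSPG2, and the integrins that bind cells to it. Members were chosen by gene symbol: symbols of the COL, LAM, ITG, FBN, FBLN, THBS and NID families, plus FN1, SPARC and HSPG2. This choice was made with earlier results of these data known. The rule found 50 genes among the 12202 genes listed in either of the authors' deposited tables, and 48 of them stood in both tables. ITGA4 was listed for the siRNA comparison only and ITGAX for the deletion comparison only. The rule also took 3 genes that carry a member's name without being a matrix or integrin gene: COL4A3BP, a ceramide transfer protein, ITGB1BP1, an integrin-binding adaptor, and ITGB3BP, a centromere protein. None of these 3 passed the DESeq2 Wald test in either comparison, and 0 had an unadjusted p under 0.05.

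The cells were teloHAEC, a telomerase-immortalised line of human aortic endothelium, and both comparisons were aimed at CALCRL, the gene of a receptor for adrenomedullin and related peptides. In the first, CALCRL siRNA was delivered by reverse transfection with Lipofectamine RNAiMAX, and 4 libraries were compared with 4 of scrambled siRNA, all lysed at 24 hours. In the second, Cas9 and guides flanking an enhancer of CALCRL were electroporated, and 3 libraries were compared with 3 in which the guide targeted HPRT, all collected at 2 days. The control cells of the second comparison were therefore cut and electroporated as well. The labels mention no clonal selection, and they do not say whether replicates were separate cultures, so the p-values measure only the spread between these libraries.

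Endothelial cells rest on a basement membrane, a sheet in which networks of type IV collagen and of laminin are held together by nidogens and by perlecan, the HSPG2 product. Fibronectin and the fibrillins form fibres around it, and matricellular proteins such as thrombospondins and SPARC alter how cells adhere to these structures. Integrins are receptors made of an alpha and a beta chain: ITGA6 and ITGA3 chains serve laminin receptors, ITGA5 pairs with ITGB1 as the main fibronectin receptor, and ITGAV pairs with several beta chains to bind fibronectin and vitronectin.

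CALCRL itself was at 34.0% of the control mean in the siRNA comparison and at 36.2% in the deletion comparison, both past the threshold of an adjusted p of 0.05 in the authors' deposited tables. Of 12 endothelial markers, 11 were listed in each table. Those past the threshold were EGFL7, lower in the siRNA comparison (log2 fold change -0.46 in the authors' deposited table), and CDH5 (-1.44) and KDR (-1.05), lower in the deletion comparison. The markers did not move as 1: 4 of the 11 were above 0 with siRNA and 5 of the 11 after the deletion. Their median log2 fold changes were -0.08 and -0.01. None of 8 fibroblast markers was listed, COL1A1, COL1A2 and COL3A1 included, and of 7 smooth muscle markers ACTA2, TAGLN and SMTN were listed, none past the threshold. The endothelial marker VWF was low, at 42.0 and 18.7 mean normalised counts in the authors' deposited tables. The part of these marker values in the results below was not tested, and in bulk RNA fewer cells of a type and less RNA per cell cannot be told apart.

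Of the 5 most abundant members, 4 were shared by both tables. SPARC, a collagen-binding matricellular protein, had the highest mean normalised count of the members in the authors' deposited siRNA table, 5480, followed by ITGA5 (3567), FN1 (3303), LAMB1 (2473) and THBS1 (2238). In the authors' deposited deletion table SPARC led with 3809, followed by FN1 (3270), ITGA5 (3032), LAMB1 (2890.2) and HSPG2 (2813). These counts come from reads at the transcript's 3' end and were not divided by transcript length. At the other end, ITGA4 (5.15) and ITGAX (8.09) were close to the lowest values the tables list. The tables used here give 1 mean over all libraries of a comparison, so the values of single libraries and the overlap of the groups were not analysed here, and the group means below were computed from that mean and the fold change.

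With siRNA against CALCRL, 6 of 49 members fell and none rose. Fibronectin, a thrombospondin, perlecan, a fibrillin, a laminin alpha chain and a type V collagen chain stood at 60.6 to 82.6% of the scrambled control. The 6 called members were 12.2% of the members tested, whereas 3.46% of all genes were called in either direction and 2.42% were called lower. The members were also more abundant, with a median of 271.6 normalised counts against 129.9 for all genes. Their median standard error was 0.138 against 0.169, and the part of this in the share called was not tested. Of the 49 members, 31 (63.3%) had a fold change below 0 against 49.4% of all genes, and the members' median log2 fold change was -0.06 against 0.00 for all genes.

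**Figure D1:**
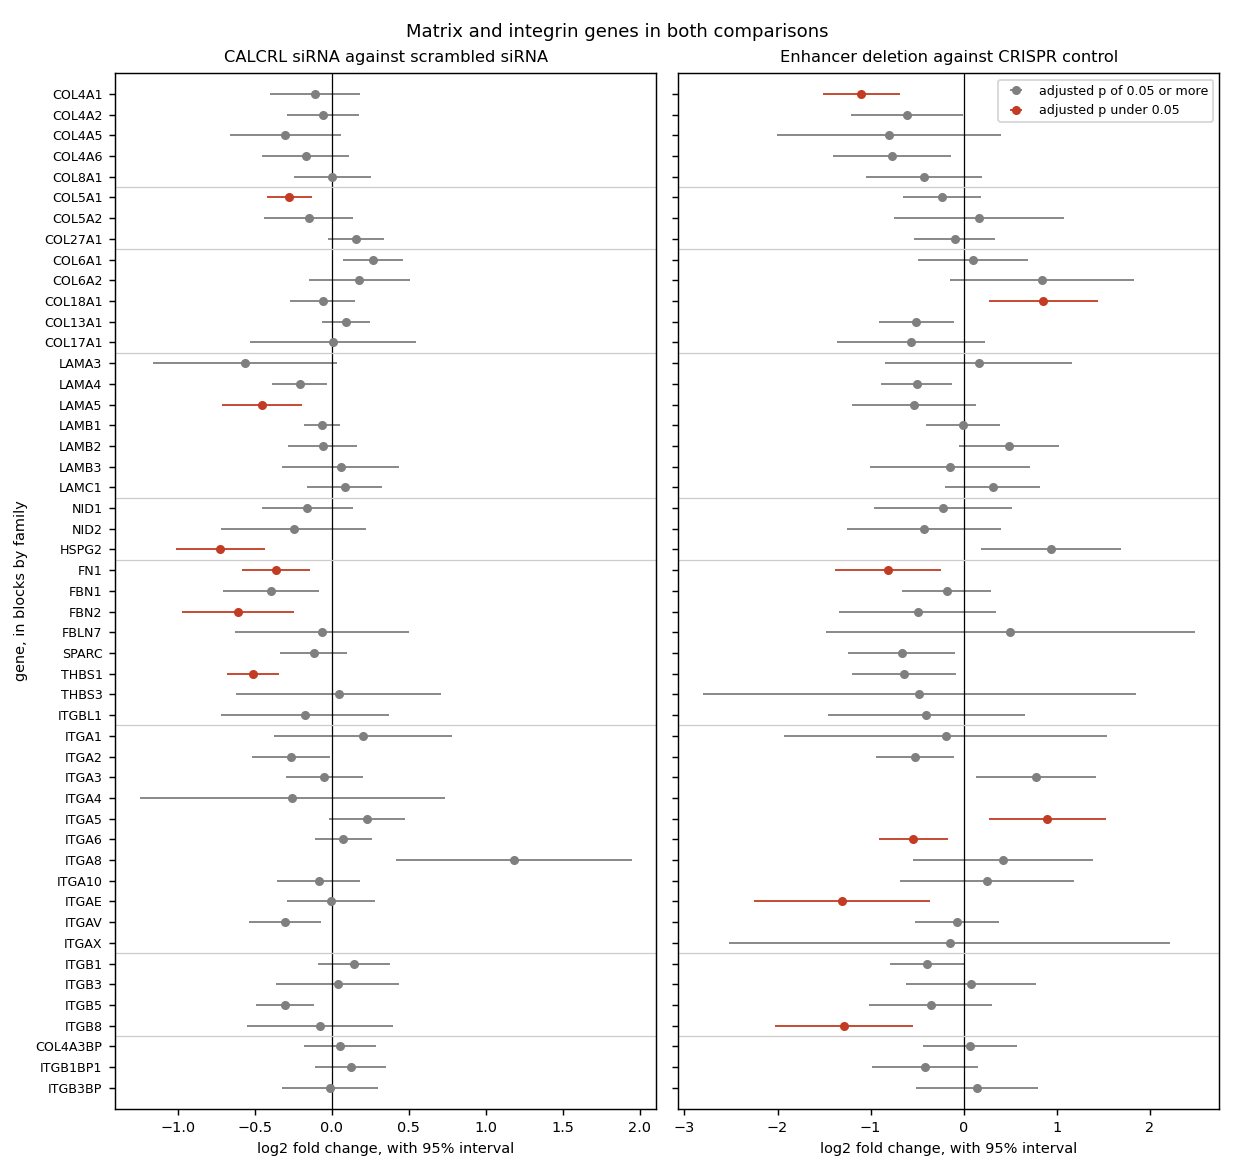
Log2 fold change of the matrix and integrin genes (points) with its 95% interval (bars) in the siRNA comparison (left) and the deletion comparison (right), in blocks by family; red marks an adjusted p under 0.05 in the authors' deposited tables. All 6 red points on the left lie below 0, and on the right 5 lie below 0 and COL18A1 and ITGA5 above it; ITGA4 has no value on the right and ITGAX none on the left, and 1 gene is not drawn.

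Among the adhesive and matricellular glycoproteins, 7 of 8 had values below 0 with siRNA and 3 passed the test. THBS1 (ENSG00000137801, chromosome 15, 39581079 to 39599466 in GRCh38), a secreted thrombospondin that restrains the growth of new vessels, went from 2631 normalised counts in the scrambled group to 1845 in the siRNA group. Its log2 fold change in the authors' deposited table was -0.51 (SE 0.09, adjusted p = 6.2e-07), or 70.1% of the control (95% interval 62.4 to 78.9%). FN1 (ENSG00000115414, chromosome 2, 215360440 to 215436172), which encodes fibronectin, went from 3715 to 2889.8 normalised counts. The authors' deposited table gave FN1 a log2 fold change of -0.36 (SE 0.11, adjusted p = 0.0362). FBN2, the gene of a fibrillin of elastic fibres and the least abundant of the 6, went from 78.1 to 51.3 normalised counts, with -0.61 (SE 0.19, adjusted p = 0.0358) in the authors' deposited table. Its relative FBN1 was at -0.39 (adjusted p = 0.193), and SPARC at -0.12 (adjusted p = 0.815), in the authors' deposited table.

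All 3 linkers of the basement membrane had fold changes below 0 with siRNA, and HSPG2 passed the test. HSPG2 (ENSG00000142798, chromosome 1, 21822245 to 21937297) encodes perlecan, a heparan sulfate proteoglycan that binds laminin, collagen and growth factors. It had the lowest siRNA fold change of the 49 members, from 2510.4 to 1520.2 normalised counts. Its log2 fold change was -0.72 (SE 0.15, adjusted p = 0.000106) in the authors' deposited table, or 60.6% of the control (95% interval 49.6 to 74.0%). The nidogens NID1 (-0.16) and NID2 (-0.25) did not pass the test in the authors' deposited table.

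Of 8 laminin chains, 5 had values below 0 with siRNA and only LAMA5 passed the test. LAMA5, an alpha chain of the vascular basement membrane, went from 596.5 to 435.2 normalised counts (log2 fold change -0.45, SE 0.13, adjusted p = 0.0235 in the authors' deposited table). LAMB1, the laminin chain with the highest count, was at 95.8% of the control (95% interval 88.2 to 104%).

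Among the collagens, 1 of 13 passed the test with siRNA. COL5A1, a chain of the type V collagen that starts fibril assembly, went from 920.6 to 760.3 normalised counts (log2 fold change -0.28, SE 0.07, adjusted p = 0.00992 in the authors' deposited table). Its partner chain COL5A2 was at -0.15 (adjusted p = 0.824) in the authors' deposited table. The 5 network-forming collagens, COL4A1, COL4A2, COL4A5, COL4A6 and COL8A1, lay between -0.30 and 0.00, none past the threshold. COL4A1 was at 92.7% of the control (95% interval 75.9 to 113%).

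No integrin chain passed the DESeq2 Wald test with siRNA, and 3 of 10 alpha chains and 1 of 4 beta chains had an unadjusted p under 0.05. The alpha chains lay between -0.30 and 1.18 and the beta chains between -0.30 and 0.14 on the log2 scale. ITGB5, a partner of ITGAV, lay just outside the threshold at -0.30 (adjusted p = 0.0509 in the authors' deposited table), going from 1029.9 to 835 normalised counts. The highest value was that of ITGA8, an alpha chain that pairs with ITGB1, at 1.18 (SE 0.39, adjusted p = 0.0647 in the authors' deposited table), with a mean of 20.4 normalised counts. With a Student t reference of 6 degrees of freedom in place of the normal one, 0 of the 49 members passed the siRNA threshold. Over all genes 5 passed with that reference, against 390 by the DESeq2 Wald test. An unadjusted p under 0.05 was reached by 11 members in that setting and by 14 with the DESeq2 Wald test of the authors' deposited table. By the DESeq2 Wald test 1354 of all 11261 genes reached it. The count over all genes with the Student t reference is not given here.

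**Figure D2:**
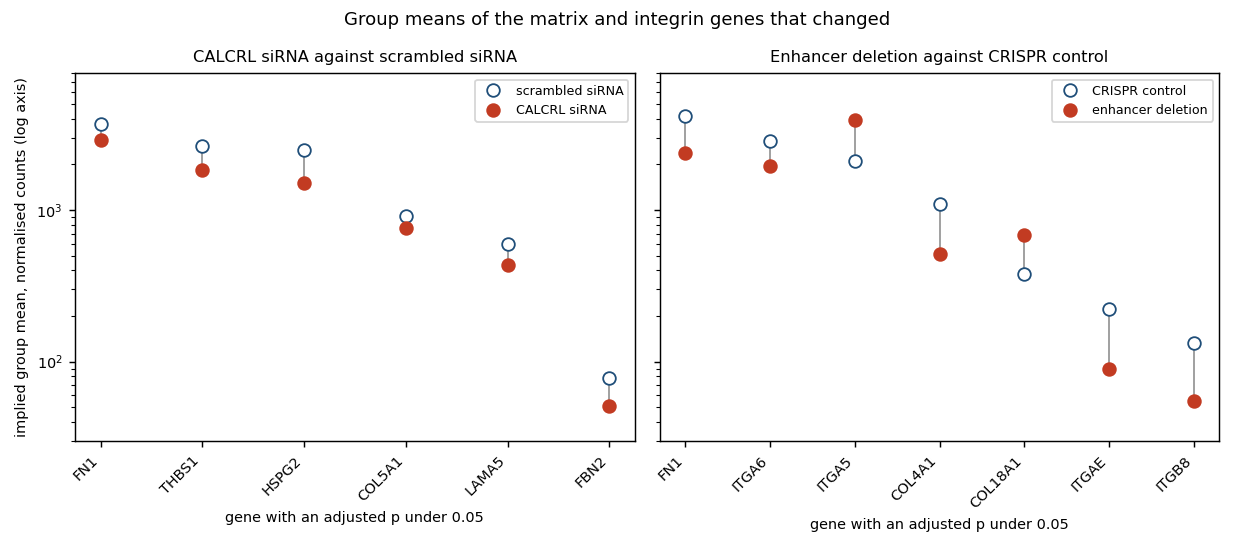
Group means in normalised counts (log axis) computed from the deposited mean and fold change, for the 6 members called in the siRNA comparison (left) and the 7 called in the deletion comparison (right); open circles are the control group, filled circles the treated group. FN1 falls on both sides, from 3715 to 2889.8 and from 4169.8 to 2370.2, and ITGA5 and COL18A1 are the pairs with the filled circle on top.

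After deletion of the enhancer, 7 of 49 members changed, 5 lower and 2 higher. The type IV collagen chain COL4A1, fibronectin and the integrin chains ITGB8, ITGAE and ITGA6 fell, while the fibronectin receptor chain ITGA5 and the type XVIII collagen COL18A1 rose. The 7 called members were 14.3% of those tested, beside 15.8% of all genes. The members called lower were 10.2% against 8.44% of all genes, and those called higher 4.08% against 7.4%, so the shares of called members lay near those of the table. The members' median log2 fold change was -0.22 against 0.00 for all genes, and 32 of 49 (65.3%) were below 0 against 49.7% of all genes.

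The network collagens were the family with every member below its control after the deletion. COL4A1 (ENSG00000187498, chromosome 13, 110148963 to 110307233), a chain of the main basement membrane collagen, went from 1099 to 513.3 normalised counts. This was 46.7% of the control (95% interval 35.1 to 62.2%), and the authors' deposited table gave a log2 fold change of -1.10 (SE 0.21, adjusted p = 3.22e-05). Its partner chain COL4A2 went from 997.7 to 653.1 normalised counts, with -0.61 (SE 0.31, adjusted p = 0.161) in the authors' deposited table. COL4A1 and COL4A2 stand head to head on chromosome 13, and their RefSeq start sites in GRCh38.p14 leave 126 bases between them. COL4A5 and COL4A6 form the same arrangement with 379 bases between the starts, and had log2 fold changes of -0.80 (adjusted p = 0.395) and -0.77 (adjusted p = 0.0818) in the authors' deposited table. COL8A1 was at -0.43 (adjusted p = 0.38) there. Of these 5 network collagens, COL4A1 was the 1 that passed the test in the authors' deposited table. By that test 3 of the 5 had an unadjusted p under 0.05, beside 3513 of 11830 genes.

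Among the other collagens, 1 rose. COL18A1, whose C-terminal fragment is the vessel growth inhibitor endostatin, went from 380.1 to 688.7 normalised counts. The authors' deposited table gave COL18A1 a log2 fold change of 0.86 (SE 0.30, adjusted p = 0.0319). COL6A2, a chain of the beaded-filament collagen, had a similar value of 0.84 in the authors' deposited table but an adjusted p of 0.257. COL13A1, a transmembrane collagen, went from 1346 to 946.6 normalised counts (-0.51, SE 0.21, adjusted p = 0.0704 in the authors' deposited table). The 3 fibrillar chains lay between -0.23 and 0.17, none past the threshold.

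Laminins and linkers showed no called member by the DESeq2 Wald test after the deletion. Of 8 laminin chains 4 had values below 0 and 4 above, and 1 of the 8 was at an unadjusted p under 0.05. LAMA4, an endothelial alpha chain, came nearest, going from 1839 to 1296 normalised counts (-0.50, adjusted p = 0.0578 in the authors' deposited table). LAMA5 went from 593.4 to 409.6 normalised counts (-0.53, SE 0.34, adjusted p = 0.288 in the authors' deposited table). LAMB1 was at 99.3% of the control (95% interval 75.4 to 131%). HSPG2 went from 1929 to 3698 normalised counts, the highest deletion fold change of the 49 members, at 0.94 (SE 0.39, adjusted p = 0.0753 in the authors' deposited table).

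Of 8 glycoproteins 7 had values below 0 after the deletion and FN1 passed the test. FN1 went from 4169.8 to 2370.2 normalised counts, 56.8% of the control (95% interval 38.2 to 84.5%). Its log2 fold change in the authors' deposited table was -0.81 (SE 0.29, adjusted p = 0.0382). SPARC (-0.67, adjusted p = 0.101) and THBS1 (-0.64, adjusted p = 0.108) had values of similar size in the authors' deposited table without passing. FN1 was the 1 member called in both comparisons, out of 12 called in either. How many of all genes were called in both was not counted here, so this overlap has no background beside it.

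Integrin chains moved in both directions after the deletion. ITGA5, the alpha chain of the main fibronectin receptor, went from 2116 to 3948 normalised counts, or 187% of the control (95% interval 121 to 288%). The authors' deposited table gave ITGA5 a log2 fold change of 0.90 (SE 0.32, adjusted p = 0.0368). ITGA6, a laminin receptor chain, went from 2848 to 1960.1 normalised counts (-0.54, SE 0.19, adjusted p = 0.0359 in the authors' deposited table). ITGB8, which pairs with ITGAV and binds latent TGF-beta, went from 133.6 to 54.7 normalised counts (-1.29, SE 0.38, adjusted p = 0.0102 in the authors' deposited table). ITGAE, best known from lymphocytes in epithelia, went from 222.1 to 89.7 normalised counts (-1.31, SE 0.48, adjusted p = 0.0457 in the authors' deposited table). ITGB1, the shared beta chain of ITGA5 and ITGA6, was at -0.39 (adjusted p = 0.186), and ITGA3, another laminin receptor chain, at 0.78 (adjusted p = 0.0871), in the authors' deposited table.

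In the deletion comparison 0 of 49 members passed with a Student t reference of 4 degrees of freedom, where 6 had an unadjusted p under 0.05. The count was also 0 after all DESeq2 Wald statistics were divided by their robust standard deviation of 1.88, with 1 member at an unadjusted p under 0.05. By the DESeq2 Wald test, 16 of 49 members and 3513 of 11830 genes were at an unadjusted p under 0.05 in the authors' deposited table. Over all genes the count past the threshold was likewise 0 with the Student t reference and 0 with the robust standard deviation. The loss of calls was thus not particular to the members.

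ITGAV was examined because its gene lies near the targeted locus. On chromosome 2 in GRCh38, ITGAV (ENSG00000138448) spans 186590065 to 186680901 on the plus strand and CALCRL spans 187343129 to 187448460 on the minus strand, which leaves 662 kb between them. In the deletion comparison ITGAV went from 483.3 to 459.3 normalised counts, and the 95% interval of its percent of control ran from 69.5 to 129.8%. The authors' deposited table gave it a log2 fold change of -0.07 (SE 0.23, adjusted p = 0.869). That interval contains both no change and a fall to the size of its siRNA value, which was -0.30 (SE 0.12, adjusted p = 0.181 in the authors' deposited table). COL5A2, the next nearest member at 1583 kb from CALCRL, was at 0.17 (SE 0.47, adjusted p = 0.849) after the deletion in the authors' deposited table. FN1 and ITGA6 also lie on chromosome 2, 27912 kb and 14837 kb away from CALCRL.

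The effects of the 2 treatments on a gene were then compared directly, since the comparisons share no library. The difference of the log2 fold changes passed the threshold for 5 of 48 members (10.4%) and for 13.7% of all genes tested in both tables. HSPG2 differed most: it was lower with siRNA and had a positive value after the deletion, a difference (siRNA minus deletion) of -1.66 (SE 0.41, adjusted p = 0.00261). COL18A1 also had the lower value under siRNA, by -0.92 (SE 0.32, adjusted p = 0.0334). COL4A1 (0.99, SE 0.26, adjusted p = 0.00423), ITGA6 (0.62, SE 0.21, adjusted p = 0.0351) and COL13A1 (0.60, SE 0.22, adjusted p = 0.0477) were lower after the deletion than with siRNA. For FN1 the difference was 0.45 with a 95% interval from -0.16 to 1.06, and for THBS1 it was 0.12 with an interval from -0.46 to 0.71, neither past the threshold. Delivery, time after treatment and number of libraries differ between the experiments, so their part in these differences cannot be told apart from that of the target.

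**Figure D3:**
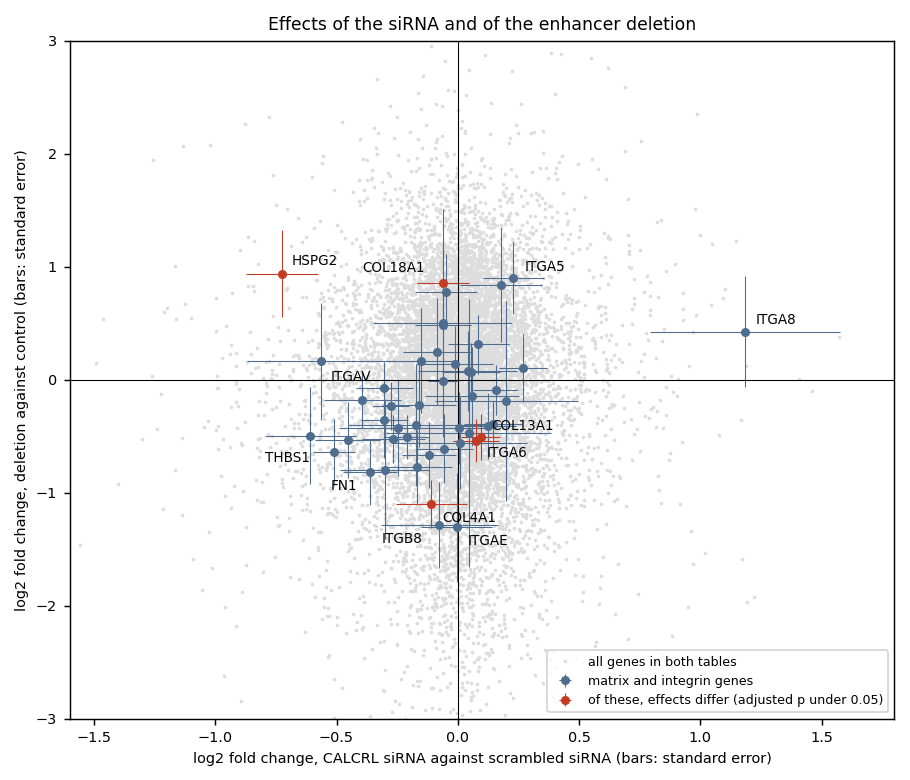
Log2 fold change in the siRNA comparison (x) against that in the deletion comparison (y); grey points are all genes in both tables, blue and red points the matrix and integrin genes with standard errors as bars, and red marks the 5 whose effects differ. HSPG2 sits at -0.72 and 0.94, COL4A1 at -0.11 and -1.10; genes beyond the axis limits are not drawn.

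In the deletion comparison the members' fold changes moved with the base composition of the annotated transcript end. Whether the reads came from that end was not determined here. The GC content of the last 500 bases of the transcript, taken from GENCODE, had a Spearman correlation of 0.46 with the deletion fold change over 49 members and of 0.31 over 11625 genes, given as a description of genes that share the same libraries. In the siRNA comparison the values were 0.22 over 49 members and 0.08 over 11099 genes. Of the 11 members with a GC content of at least 50%, 7 were above 0 after the deletion, with a median log2 fold change of 0.49. Among all genes in that range, 2153 of 3056 were above 0, with a median of 0.44, so the split is not particular to the members. Of the 38 members with a lower GC content, 10 were above 0, with a median of -0.40. Among all genes with a lower GC content, 3698 of 8569 were above 0, with a median of -0.13. COL18A1 (58.6%), ITGA5 (56.6%) and HSPG2 (63.0%) are GC-rich at the end, and ITGB8 (24.2%), FN1 (30.8%) and ITGA6 (31.2%) are GC-poor.

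When the trend on GC content over all genes was removed, 2 members were past the threshold in the deletion comparison. Among all genes 1404 were past it, against 1874 as deposited. COL4A1 was at -1.21 (adjusted p = 2.98e-06), and LAMA5 moved to -0.96 (adjusted p = 0.0419). The other called members moved to 0.36 for COL18A1, 0.48 for ITGA5, -0.29 for ITGA6, -0.55 for FN1, -0.89 for ITGB8 and -1.20 for ITGAE, with adjusted p-values from 0.0812 to 0.456. ITGAV moved from -0.07 to 0.19 and LAMB1 from -0.01 to 0.22, which reversed the sign of both. In the siRNA comparison the same step left 5 called members, FN1 having an adjusted p of 0.0628 at -0.34. Among all genes 361 were called there, against 390 as deposited. Of the 5 differences between the treatments, that of COL4A1 was past the threshold with the GC trend removed (1.09, adjusted p = 0.00151). That of HSPG2 was -1.04 (adjusted p = 0.0777). Among all genes 1204 differences were past the threshold in this setting, against 1493 without it.

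**Figure D4:**
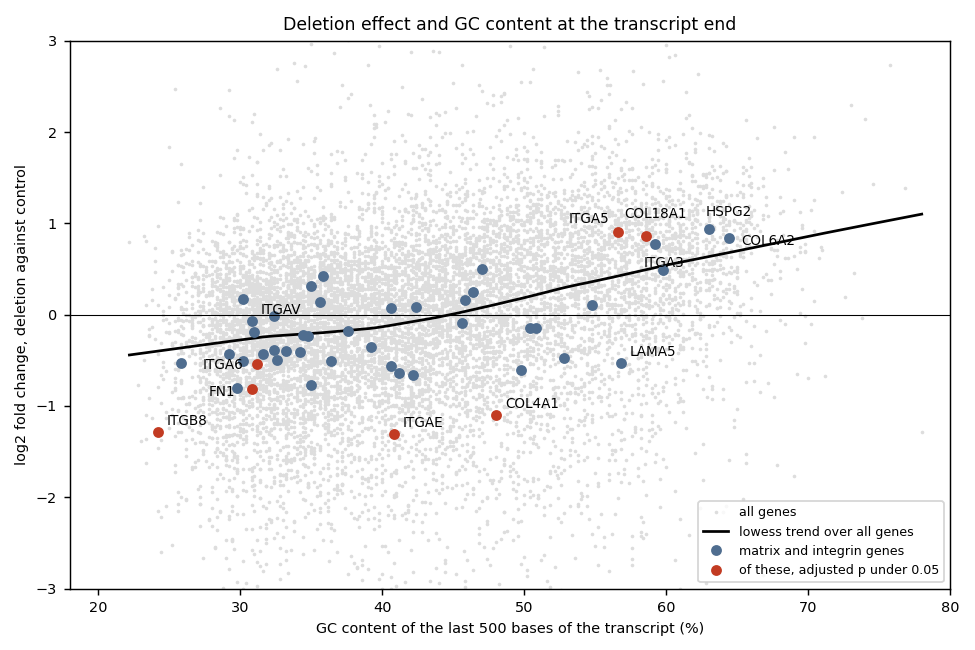
Deletion log2 fold change (y) against the GC content of the last 500 bases of the transcript in percent (x); grey points are all genes, the black line their lowess trend, blue points the matrix and integrin genes, red those with an adjusted p under 0.05. COL18A1, ITGA5 and HSPG2 lie above the rising part of the line, COL4A1 at 48.0% GC lies well below it, and genes beyond the axis limits are not drawn.

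The 3' UTRs of the members were searched for a word of 7 bases, GTAACAA, that an earlier look at these data had found in many genes lowered by the siRNA. Among genes with an annotated 3' UTR, the word occurs in 155 of 266 called lower in the siRNA comparison (58.3%) and in 1092 of all 10638 (10.3%). Since the word was found in these lowered genes, its share among them is no independent result. Among the members it occurs in 5 of 49 (10.2%), and among the 6 that fell in 1, COL5A1. The sites are shown so that the called member can be set beside the others, as 29 bases of the transcript 5′ to 3′ (GENCODE, GRCh38), with the word in capitals.
COL5A1: tctaaacttgtGTAACAAaggaataatta
ITGA1: taccagaacctGTAACAAgaccagaacat
ITGB1: ataagagtgccGTAACAActgtggtcaat
ITGBL1: gctaattatcaGTAACAAatagatggggg
NID2: ataccaaagatGTAACAAttttaaaattt
The word starts at base 2476 of the 2540 bases of the COL5A1 3' UTR, and at base 627 of 683 in NID2, base 34 of 1323 in ITGB1, base 1404 of 6759 in ITGA1 and base 3022 of 3374 in ITGBL1. Against the log2 fold change of -0.28 for COL5A1, the authors' deposited table gave -0.25 for NID2, -0.17 for ITGBL1, 0.14 for ITGB1 and 0.20 for ITGA1, none of these 4 past the threshold. THBS1, HSPG2, LAMA5, FBN2 and FN1 have no GTAACAA in the 3' UTR used.

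The 3 members of highest count that fell with siRNA were FN1, THBS1 and HSPG2, and their promoters are shown because these genes changed in the same comparison. The sequences are RefSeq's for GRCh38.p14, read 5′ to 3′ on the gene's strand from 250 bases before the start site. For FN1, 104 bases next to the start were left out because GENCODE annotates them as part of the gene. The positions are chr2:215436173-215436318 on the minus strand for FN1, chr15:39580829-39581078 on the plus strand for THBS1 and chr1:21937311-21937560 on the minus strand for HSPG2. Capitals mark matches on either strand to any of 6 motifs. The cAMP response element was searched as TGACGTCA and the core of the heat shock element as GAANNTTC. For the TEAD factors the letters were GGAATG. The GC box, bound by the Sp family, was searched as GGGCGG. The TATA box was searched as TATAAA, and the last motif was the CCAAT box.
FN1: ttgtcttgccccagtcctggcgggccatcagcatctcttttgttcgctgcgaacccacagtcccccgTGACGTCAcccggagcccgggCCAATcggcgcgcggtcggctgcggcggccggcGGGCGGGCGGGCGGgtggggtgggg
THBS1: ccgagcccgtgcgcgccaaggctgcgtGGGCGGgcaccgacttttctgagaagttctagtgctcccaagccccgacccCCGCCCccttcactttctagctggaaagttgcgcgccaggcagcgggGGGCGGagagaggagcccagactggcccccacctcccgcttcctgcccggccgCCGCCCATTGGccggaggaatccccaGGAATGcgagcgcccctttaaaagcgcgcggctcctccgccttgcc
HSPG2: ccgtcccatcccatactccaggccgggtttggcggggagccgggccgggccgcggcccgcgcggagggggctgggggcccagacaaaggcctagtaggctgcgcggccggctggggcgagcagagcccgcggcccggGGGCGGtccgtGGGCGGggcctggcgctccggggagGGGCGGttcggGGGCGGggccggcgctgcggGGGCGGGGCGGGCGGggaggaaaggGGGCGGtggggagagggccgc
The FN1 stretch holds TGACGTCA at 183 bases before the start, CCAAT at 162 and 3 overlapping GC boxes. The THBS1 stretch holds 4 GC boxes, 1 GGAATG at 46 bases before the start and 1 CCAAT on the other strand, which touches a GC box. The HSPG2 stretch holds 8 GC boxes, some overlapping, and none of the other 5 motifs. Over the 250 bases before the start, TGACGTCA occurs in 1.77% of 27305 RefSeq promoters and in 1 of the 42 members matched by symbol, FN1. GAANNTTC occurs in 5.85% of all promoters and in those of LAMA4, NID2, COL4A5 and COL4A6. The TEAD motif occurs in 11.9% of all and in 7 of 42 members, the GC box in 42.3% of all and in 28 of 42 (66.7%), the TATA box in 11.1% and in 4, and the CCAAT box in 33.0% and in 14. The RefSeq promoters include genes not listed in either comparison, so the shares of members and of all promoters are not a like comparison. The windows of COL4A1 and COL4A2 overlap, as do those of COL4A5 and COL4A6, so 1 match can count for both genes. A match is a description of the letters only, and binding was not measured here.

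Genes that make, modify or sense the matrix were taken as background lists. Of 30 listed enzymes and carriers of collagen maturation, 1 (3.33%) changed with siRNA, near the 3.46% of all genes: PPIB, a prolyl isomerase of the endoplasmic reticulum that folds procollagen, fell (-0.96, SE 0.20, adjusted p = 0.000162 in the authors' deposited table). After the deletion 6 of 31 (19.4%) changed, 5 lower and 1 higher, beside 15.8% of all genes. The lowest called in the authors' deposited table was P4HA3 (-3.35, SE 0.93), a prolyl hydroxylase subunit with a mean of 20.4 normalised counts. P4HA3 went from 37.1 to 3.64 normalised counts, so its value rests on few counts. Next came PLOD2 (-1.51), a lysyl hydroxylase of collagen crosslinks, and SEC23A (-1.29), a coat protein for export from the endoplasmic reticulum. LEPREL4, a partner of collagen-modifying hydroxylases, was higher by 1.29 (adjusted p = 0.00518) in the authors' deposited table. With the GC trend removed, LEPREL4 (0.96, adjusted p = 0.0504), PLOD2 (-1.21, adjusted p = 0.0831) and SEC23A (-0.95, adjusted p = 0.0781) were no longer past the threshold, and P4HA3 was (adjusted p = 0.00618).

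Of integrin adaptors and focal adhesion genes, 2 of 56 (3.57%) changed with siRNA, near the 3.46% of all genes: the kinase FYN rose (0.45, adjusted p = 0.0422) and the receptor PEAR1 fell (-0.54, adjusted p = 0.00084) in the authors' deposited table. After the deletion 14 of 57 (24.6%) changed, 8 lower and 6 higher, beside 15.8% of all genes; the list was not tested against the rest. CD151, a tetraspanin bound to laminin-binding integrins, rose by 1.54, RASIP1, an effector of Rap, by 1.46 and LIMS2, an adaptor of integrin-linked kinase, by 1.30 on the log2 scale in the authors' deposited table. These 3 calls were lost with the GC trend removed, at 0.92 for CD151 (adjusted p = 0.08), 0.87 for RASIP1 (adjusted p = 0.0892) and 0.62 for LIMS2 (adjusted p = 0.321). The tetraspanin CD9 (-3.67), the syndecan adaptor SDCBP (-2.58) and RAP1A (-1.67), a GTPase that switches integrins on, were the lowest called in the authors' deposited table. The standard error of CD9 was 3.87 times that of genes with a similar mean in the deletion comparison and 5.56 times with siRNA, and that of SDCBP was 1.89 and 4.35 times, whereas among the members no ratio exceeded 2 in either comparison. The highest member ratio was that of HSPG2 in both, 1.68 after the deletion and 1.49 with siRNA.

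Other matrix genes changed in 2 of 40 cases (5.0%) with siRNA, against 3.46% of all genes: the matricellular CTGF (-0.53, adjusted p = 0.0345) and POSTN, which encodes periostin (-0.50, adjusted p = 5.44e-05), both fell in the authors' deposited table. After the deletion 5 of 39 (12.8%) changed, 4 lower and 1 higher, below the 15.8% of all genes. CYR61, a relative of CTGF, was at -3.41 (adjusted p = 5.16e-09), CTGF at -2.09 (adjusted p = 6.41e-05) and the heparan sulfate proteoglycan SDC1 at -1.29 (adjusted p = 0.0224) in the authors' deposited table. GPC1, another cell surface heparan sulfate proteoglycan, was higher by 1.00 (adjusted p = 0.0179 in the authors' deposited table), a call lost with the GC trend removed (0.43, adjusted p = 0.393). The standard error of CYR61 with siRNA was 5.67 times that of genes with a similar mean, and 1.78 times after the deletion. CTGF thus fell in both comparisons, as FN1 did. With the GC trend removed, CTGF was past the threshold with siRNA (adjusted p = 0.0458) and after the deletion (adjusted p = 0.00053). FN1 was past it in neither (adjusted p = 0.0628 and 0.204).

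The ends of 6 of the 50 members overlap an exon of another gene on the opposite strand in GENCODE. COL18A1 overlaps SLC19A1 and HSPG2 overlaps LDLRAD2, so their counts are uncertain if reads were counted without regard to strand, which the sources used here do not give. The other 4 were NID2, ITGBL1, THBS3 and ITGB1BP1, none of them called.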

How the data were processed

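RNA from 14 libraries was sequenced from the 3' end (QuantSeq FWD kit, single end, 86 cycles), per the labels' protocols. The authors deposited 1 table per comparison, which per the names of the deposited files were made with featureCounts and DESeq2; per the file headers the authors' deposited columns are a mean normalised count, a log2 fold change with standard error, p-values before and after adjustment, and a score, the Wald statistic. The submitters' processing notes name hg19 and edgeR 3.24.3 without a role; the aligner and annotation are not given in the sources used here. Depth per library was not analysed here, so precision is given by the deposited standard errors. Members and gene lists were chosen with earlier results of these data known.

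From the deposited values, group means, percent of control and 95% intervals (normal quantile) were computed. Calls were made at an adjusted p under 0.05. The difference between comparisons was tested per gene as a normal statistic of both log2 fold changes, adjusted by Benjamini-Hochberg over the genes in both tables. A planned edgeR fit could not be applied to such tables. Named genes were every member called in either comparison or for the difference, the 5 most abundant members of each table and ITGAV, other members being given where a family needs them; of the lists, genes called with siRNA and the 3 highest and 3 lowest called after the deletion. LEPREL4 and GPC1 were the only genes called higher in their lists.

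Positions, 3' UTRs and GC content came from GENCODE 29 on GRCh38 (the longest 3' UTR per gene), which is not the build the notes name, matched by gene ID; promoters came from RefSeq, GRCh38.p14. The GC trend was a lowess fit (span 0.3, statsmodels 0.14.6; scipy 1.17.1, pandas 2.3.3, Python 3.11.15). Alternatives were a Student t reference, statistics divided by their robust SD, the GC trend removed, a mean of at least 50 normalised counts, a minimum fold change and leaving out the 3 genes that are no matrix or integrin gene. Scripts were tested on simulated data. The values of 1 member were left out of the text and figures but are counted in the totals; other members without a printed value are covered by the counts of their family.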

Additional observations from a re-analysis of the deposited data

Results flagged for a closer look

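For 5 members the effect differed between the siRNA and the deletion comparison by a test of the difference itself, given as siRNA minus deletion on the log2 scale: HSPG2 (-1.66), COL4A1 (0.99), COL18A1 (-0.92), ITGA6 (0.62) and COL13A1 (0.60). These were 10.4% of the 48 members tested, below the 13.7% of all genes. With the difference statistics divided by their robust SD of 1.84, 0 members and 0 of all genes were called. HSPG2 had values of opposite sign in the 2 comparisons, lower with siRNA (60.6% of the control) and at 192% of the control after the deletion. The deletion value was not past the threshold (adjusted p = 0.0753). With the GC trend removed it was 0.30 on the log2 scale (adjusted p = 0.659). ITGB8 (1.21, adjusted p = 0.0505) and ITGAE (1.30, adjusted p = 0.0629) lay just outside the threshold. With the GC trend removed, the difference was called for 1 of the 5, COL4A1, and for 1204 of all genes. The part of delivery, time and GC content in the other 4 was not tested.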

How the results depend on the processing

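No paired analysis was possible because values per library were not analysed here; leaving out each replicate and the replicate block were not run for that reason. With siRNA, 6 of 49 members were called as deposited, 0 with a Student t reference, 3 after division by the robust SD (COL5A1, HSPG2 and THBS1) and 0 with a minimum absolute log2 fold change of 1. Among all genes the same settings called 390, 5, 262 and 27 in turn. Over all 49, 14 members had an unadjusted p under 0.05 by the DESeq2 Wald test and 11 by the Student t reference. Among all 11261 genes, 1354 had one by the DESeq2 Wald test. After the deletion, 7 of 49 were called as deposited, 0 with the Student t reference, 0 with the robust SD, 2 with the GC trend removed (COL4A1, and LAMA5, which was not among the 7) and 3 with the minimum fold change (COL4A1, ITGB8 and ITGAE). Among all genes these settings called 1874, 0, 0, 1404 and 1334 in turn. Over all 49, 16 members had an unadjusted p under 0.05 by the DESeq2 Wald test, 6 by the Student t reference and 1 with the robust SD. Among 11830 genes, 3513 had one by the DESeq2 Wald test. The 5 differences became 0 with the robust SD and 1 with the GC trend removed. With the robust SD 2 of 48 members were at an unadjusted p under 0.05, against 9 as computed from the deposited values. Among all genes 1493 differences became 0 with the robust SD and 1204 with the GC trend removed. Over genes averaging 50 or more normalised counts, 7 of 39, 8 of 42 and 5 of 39 members were called. This added ITGB5 with siRNA and LAMA4 after the deletion. Among all genes 391, 1870 and 1519 were called in that setting. Leaving out the 3 genes that are no matrix or integrin gene left 6 and 7. The median log2 fold changes kept their sign in each setting run, from -0.08 to -0.06 with siRNA and from -0.37 to -0.16 after the deletion. Removing the GC trend reversed the deletion values of ITGAV (0.19) and LAMB1 (0.22). The cause of these changes was not tested. Without library values, depth limits could not be set.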
